A study of Mus musculus with 2 samples.

Results

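Among the cells of a gut digest, 161 barcodes had the transcript content of pancreatic acinar cells, the enzyme-secreting cells of the exocrine pancreas, and all of them came from 1 of 2 mice. A barcode is the tag of 1 droplet and here stands for 1 cell, or for whatever shared its droplet. The barcodes were chosen by the summed unique molecular identifiers (UMIs, 1 per captured transcript) of 11 digestive enzyme genes, namely Ctrb1, Try4, Try5, Prss2, Clps, Cela3b, Cela2a, Pnlip, Cpa1, Cpb1 and Ctrl. A barcode that passed the study's quality limits and gave at least 20% of its UMIs to these genes was taken. In mouse 1 this held for 161 of 7941 kept barcodes, or 2.03% (95% exact binomial interval 1.73% to 2.36%, counting error only). In mouse 2 it held for 0 of 6957 kept barcodes, with a 95% exact binomial interval of 0% to 0.0530%.

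Both mice were VilCreER Apc fl/fl, a line in which tamoxifen turns on a Cre recombinase under the villin promoter and removes both floxed copies of the tumour suppressor Apc from the intestinal epithelium. Each mouse received 2 intraperitoneal injections of 2 mg tamoxifen, 24 h apart, and was sampled at day 4. A segment of proximal small intestine was chopped, digested with enzymes and sorted on DAPI to remove dead cells, and its RNA was counted by 10x 3′ single-cell sequencing with no enrichment of a cell type. Villin is an intestinal driver, the labels name proximal small intestine as the only tissue, and no mouse without the Cre or the deletion was analysed here. The series therefore offers no comparison of genotypes for these cells, and with members in 1 mouse alone no replicate check and no test was possible. Everything below describes 1 library, and the intervals cover counting error only.

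Acinar cells make the zymogens and enzymes that digest protein, fat, starch and nucleic acid in the duodenum. They fold these proteins in an extensive endoplasmic reticulum (ER), pack them into zymogen granules and release them when cholecystokinin or acetylcholine binds at the cell surface. Their programme is driven by the PTF1 complex, in which PTF1A pairs with RBPJL on the control regions of enzyme genes, together with factors such as NR5A2 and MIST1 (Bhlha15). Members of the Reg family are small secreted lectins of acinar and gut cells, several of which rise when the pancreas is stressed.

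The libraries held 85670711 UMIs in 9645 barcodes of mouse 1 and 38716743 UMIs in 8800 barcodes of mouse 2. The 161 barcodes carried 1470200 UMIs, 1.81% of those in the kept barcodes of mouse 1. Of these, 790643 came from the 11 enzyme genes and 679557 from all other genes. Single barcodes held from 516 to 89059 UMIs with a median of 3589, and from 101 to 4165 genes with a median of 328. Their enzyme share ran from 20.3% to 67.2% with a median of 53.5%. The libraries shared 24 barcode sequences, and 0 of the 161 were among them. No doublet caller was run and no barcode was removed as a doublet.

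The enzyme share split the barcodes of mouse 1 into a large low group and a small high group, as the plot of enzyme shares shows. Among the barcodes that were not taken the median share was 0.138% and the highest 18.99%. Between 5% and 10% lay 18 barcodes, and between 10% and 20% lay 11. Above the threshold, 9 barcodes lay from 20% to 30%, 11 from 30% to 40%, 34 from 40% to 50%, 79 from 50% to 60% and 28 from 60% to 70%. Just inside the threshold stood barcodes at 20.3%, 21.04%, 24.8%, 26.5% and 27.1%, and just outside it stood barcodes at 18.99%, 18.8%, 16.8%, 14.6% and 12.9%. These neighbours on both sides were mixed in content. The barcode at 21.04% held 52 UMIs of 8 lymphocyte genes (Ptprc, the T cell receptor and CD3 genes and Cd79a), and the one at 18.99% held 64. Those at 20.3% and 18.8% had 52.4% and 51.9% of their non-enzyme UMIs from immunoglobulin genes.

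**Figure D1:**
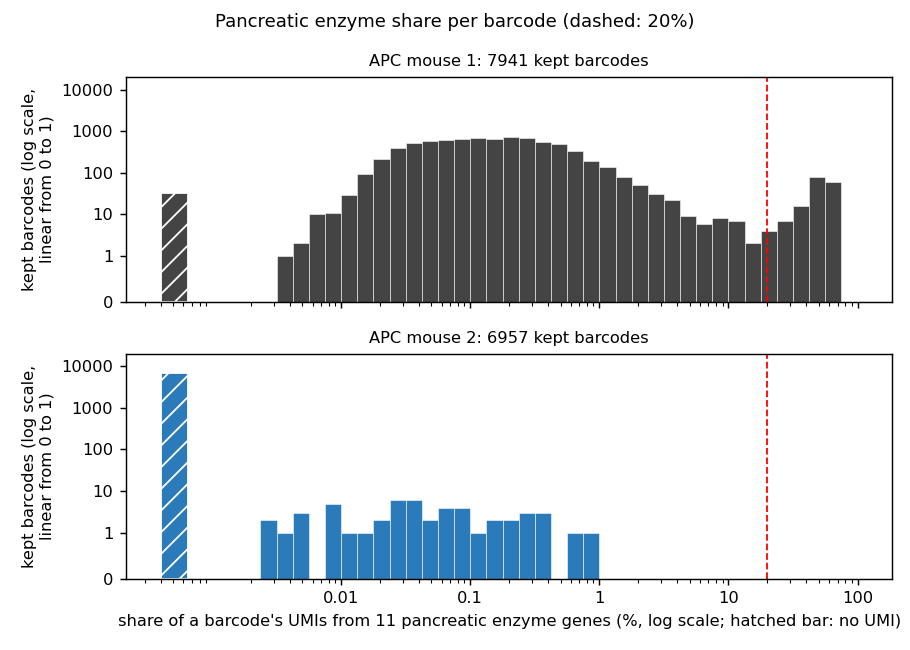
Number of kept barcodes (vertical axis, log scale that is linear from 0 to 1) by the share of their UMIs from the 11 enzyme genes (horizontal axis, percent, log scale), with mouse 1 above and mouse 2 below, the hatched bar for barcodes with no enzyme UMI and the dashed line at 20%. In mouse 1 a second group of 161 barcodes stands beyond the line, while in mouse 2 no barcode passes 0.833%.

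Enzyme transcripts were not confined to the 161 barcodes, which held 89.3% of all enzyme UMIs in the kept barcodes of mouse 1. The other 7780 barcodes held the remaining 95021, and 7748 of them had at least 1. In mouse 2 the 11 genes gave 281 UMIs in all, spread over 50 barcodes, of which 258 were Clps (colipase, the cofactor of pancreatic lipase), and 225 of those 258 sat in 14 barcodes with 5 or more each.

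The zymogen mixture was led by chymotrypsinogen and trypsinogens. These values chose the barcodes and are given as a description. Ctrb1, a chymotrypsinogen, made up 26.4% of the enzyme UMIs, with single barcodes from 8.61% to 39.9%. The trypsinogens Try4, Prss2 and Try5 followed at 14.4%, 13.6% and 8.43%, together 36.4%. The elastases Cela3b and Cela2a gave 6.57% and 6.42%, and the lipase Pnlip gave 5.01%. The carboxypeptidases Cpa1 and Cpb1 gave 3.83% and 3.30%, and the chymotrypsin-like Ctrl 3.06%. Of the 161 barcodes, 159 held a UMI of each of the 11 genes, 1 lacked Clps and 1 lacked Pnlip.

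Clps was the most uneven of the 11. It made up 9.004% of the summed enzyme UMIs, but single barcodes ranged from 0% to 40.1% with a median of 4.16%. The mixture moved with depth, which is the number of UMIs in a barcode. The barcodes were ranked by depth and cut into 4 groups. In the shallowest group (41 barcodes, median 749 UMIs) Clps gave 2.66% of the enzyme UMIs and in the deepest (40 barcodes, median 21525.5 UMIs) 9.32%. Cela2a went the other way, from 11.9% to 5.97%, while Ctrb1 stood at 24.6% and 26.4% and the 3 trypsinogens together at 37.3% and 36.9%. In the other barcodes of mouse 1 the trypsinogens took 42.1% of enzyme UMIs and the chymotrypsinogens and elastases 39.1%, against 36.4% and 42.5% in the 161.

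**Figure D2:**
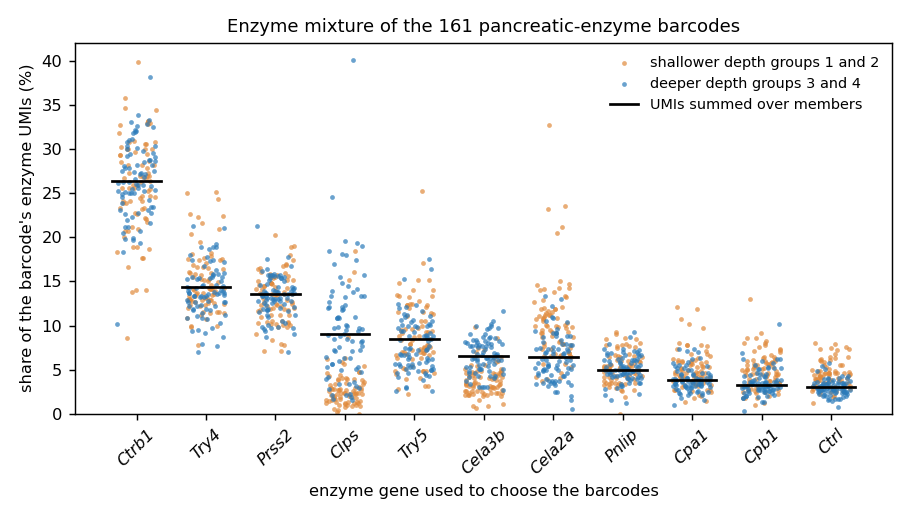
Share of each barcode's enzyme UMIs (vertical axis, percent) from each of the 11 genes (horizontal axis), 1 point per barcode, coloured by depth (the 2 shallower groups of 4 and the 2 deeper), with the black line for the UMIs summed over all 161 barcodes. Ctrb1 leads at 26.4% and Clps spreads from 0% to 40.1%, with the shallower barcodes mostly below its line.

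Several enzyme genes are close copies, which limits how far their counts can be told apart. Try4, Try5, Prss2, Try10, Prss1 and Prss3 lie in one cluster on chromosome 6 (GRCm38, GENCODE M21), with Try4 at chr6:41302269-41305532 on the plus strand and Try5 at chr6:41311233-41316841 on the minus strand. The GENCODE transcripts of Try4 and Try5 were 97.1% identical over their length and 96.3% over their last 300 bases, the end that 3′ sequencing reads. Try4 and Prss2 were 88.9% and 81.2% identical over the same stretches. The windows below show the coding sequence around the activation site, where enteropeptidase cuts the trypsinogen, with the 15 bases of the site in capitals. They are printed to show how alike the copies are and how 2210010C04Rik, an abundant trypsinogen-like gene outside the rule, compares.
Try4: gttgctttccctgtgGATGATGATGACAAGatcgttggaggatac
Try5: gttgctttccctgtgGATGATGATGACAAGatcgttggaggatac
Prss2: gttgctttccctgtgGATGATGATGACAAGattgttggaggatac
Try10: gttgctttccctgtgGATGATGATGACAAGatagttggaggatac
Prss3: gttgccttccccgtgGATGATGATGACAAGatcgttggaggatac
2210010C04Rik: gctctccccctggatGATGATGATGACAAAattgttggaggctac
Try4 and Try5 did not differ within this window, and reads that matched both may have been dropped or split, so each level is uncertain. In the 81 deeper barcodes Try4 made up from 7.01% to 21.3% and Try5 from 2.57% to 17.5% of the enzyme UMIs.

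For everything outside the rule, levels are given as counts per 1000000 UMIs (CPM) with the 11 enzyme genes left out of every total. Since 3′ counting tags 1 end of each transcript, levels were not divided by gene length. The barcodes were compared with the other 7780 kept barcodes of mouse 1. A gene was called higher at 4-fold or more with at least 10 UMIs in the 161, and lower at 4-fold or more below where at least 12 UMIs would have been present at equal level. Of 15362 genes scored, 240 were called higher (1.56%), and of the 4461 that could have been called lower, 1186 were (26.6%). The barcodes were cut by their own transcripts, so these calls describe the group and test nothing. The median log2 ratio over 8982 measurable genes was -0.85, so most genes sat below their level in the other barcodes. The balance of calls rested on the totals. With the other secretory products also left out of them 365 genes were called higher and 238 lower, and with the rule genes kept in them 163 higher and 4335 lower.

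The enzymes and secreted proteins outside the rule made up 45.9% of the remaining UMIs. Of 29 such genes in the files, 9 could have been called lower than in the other barcodes and 0 were (beside 26.6% of all genes). Called higher were 27 of the 29 (beside 1.56% of all genes). Their list had a median log2 ratio of 9.70 beside -0.85 over all measurable genes. The exceptions, Cpa3 and Cck, had 1 and 0 UMIs. Reg1 was the most abundant gene of this list at 76618 CPM (95% exact Poisson interval 75961 to 77278), against 107 in the other barcodes and 2.14 in mouse 2. It was followed by the trypsinogen-like 2210010C04Rik at 60476, the pancreatic ribonuclease Rnase1 at 50917, the elastase Cela1 at 47731, the granule protein syncollin (Sycn) at 44834 and Reg2 at 44566. In the other barcodes of mouse 1 these 5 lay between 51.8 and 77.3 CPM.

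Lipid-digesting enzymes formed the next tier. The lipase-related Pnliprp1 stood at 19688 CPM against 16.2 in the other barcodes, the carboxyl ester lipase Cel at 15915 against 11.98, the phospholipase Pla2g1b at 8451 against 10.2 and Pnliprp2 at 5011 against 5.17. Among granule and membrane proteins, Zg16 stood at 35586, Klk1 at 8485, Dmbt1 at 6965 and the granule membrane glycoprotein Gp2 at 3630. Few amylase UMIs were counted beside these. Amy2a5, a pancreatic amylase, had 849 CPM (577 UMIs) against 0.969, and Amy1 had 92.7 against 0.101. Amy2a5 has near-identical copies, and reads that matched several may have been dropped or split, so the level of amylase transcripts is uncertain.

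A few products of this list were also made elsewhere in the digest. Spink1, a trypsin inhibitor, stood at 5353 CPM in the 161 barcodes and at 3130 in the 168 enterocyte-type barcodes of mouse 1 (5% or more of UMIs from 12 enterocyte markers), a ratio too small to be called. The trefoil factor Tff2 stood at 8738 against 929 in the other barcodes of mouse 1, while mouse 2 gave 0 UMIs of it in 35473979, which allows up to 0.0846 CPM. Zg16 was higher in mouse 2 (153 CPM) than in the other barcodes of mouse 1 (85.8), although no pancreatic-enzyme barcode was found there.

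**Figure D3:**
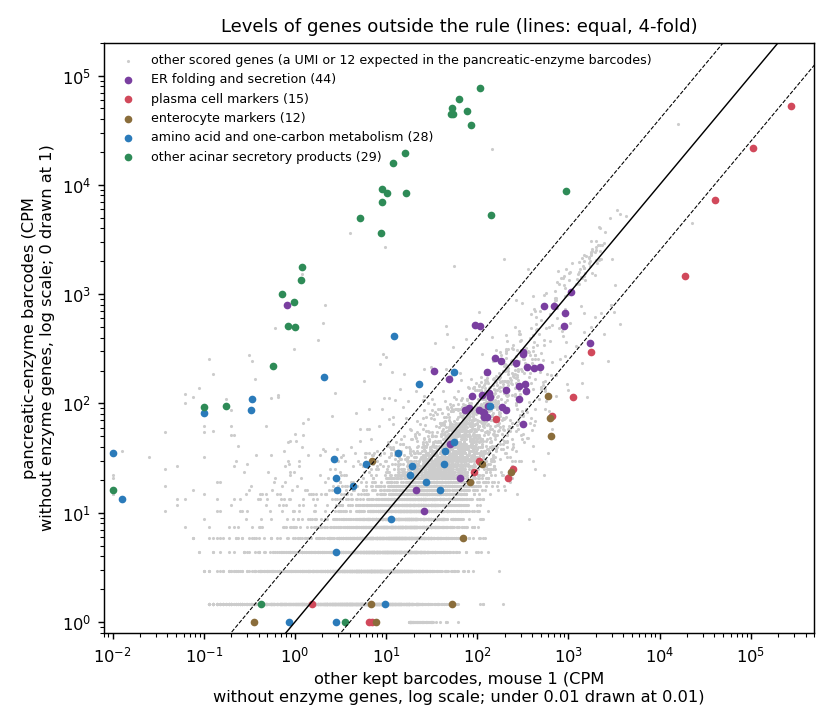
Level of each gene outside the rule in the 161 barcodes (vertical axis) and in the other kept barcodes of mouse 1 (horizontal axis), both in CPM without the enzyme genes on log scales, with the solid line for equal levels and the dashed lines for 4-fold. Acinar secretory products lie far above the upper line, ER genes mostly between the dashed lines, and plasma cell and enterocyte markers mostly on or under the lower line.

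Ranked by ratio, the leading genes outside the enzyme list included Aqp12, Cabp2, Gm2663, Cckar, Itih4, Hamp2, Try10, Klk1b3, Serpini2, Cel, Reg3d, Pnliprp1, Cuzd1 and Gm13010, with log2 ratios from 11.14 down to 9.93 after counts under 3 had been set to 3. Aqp12, a water channel of acinar cells, stood at 256 CPM (219 to 297) with 9 UMIs in all other barcodes of mouse 1 and 0 in mouse 2. Cckar encodes the cholecystokinin receptor, and it stood at 138 CPM (112 to 169) with 7 UMIs in the other barcodes and 1 in mouse 2. Serpini2, a pancreatic serine protease inhibitor, stood at 995 and Cuzd1, a zymogen granule protein, at 1360. The hepcidin gene Hamp2 had 126 UMIs in the 161 barcodes, 10 in the rest of mouse 1 and 0 in mouse 2.

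Transcripts of the factors that drive the acinar programme were rare but present. Of 18 transcription factor genes, Ptf1a, Rbpjl and Nr5a2 were called higher (beside 1.56% of all genes). Only 3 of the 18 could have been called lower, and 0 were (beside 26.6%). Ptf1a gave 10 UMIs (14.7 CPM, 7.06 to 27.1) in 8 of the 161 barcodes and 0 UMIs in the 7780 others. With that 0 set to a floor of 3 counts the ratio was 390-fold, before counting error in the 10 UMIs. Rbpjl gave 37 UMIs (54.4 CPM) against 0.101, and Nr5a2 gave 19 UMIs (27.96 CPM) against 0.302. With 10 and 19 UMIs the calls for Ptf1a and Nr5a2 hang on the minimum of 10, and neither was called in the 42 barcodes without other-cell RNA described below. Bhlha15, which plasma cells also use, stood at 53.0 CPM in the 161 barcodes, at 20.6 in the others and at 29.4 in plasma-cell-type barcodes, a 2.57-fold ratio that was not called. Xbp1, the ER stress factor of secretory cells, stood at 461 against 861. Pdx1 gave 6 UMIs, Gata4 5, Gata6 4, and Mnx1, Prox1 and Insm1 none.

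Acinar enzyme promoters are known for the paired motif that PTF1 reads, an E-box (CACCTG) and a TC-box (TTTCCC). Promoter windows of 300 bases from RefSeq (GRCm38.p6) were found for 9 of the 11 rule genes and for 22 of the 31 symbols of the secretory list, where the 22 symbols gave 23 windows, and both motifs were sought on both strands. An E-box lay in 6 of 9 rule promoters and 12 of 23 secretory ones, and in 20.2% of all 32851 RefSeq promoters. A TC-box lay in 4 of 9 and 7 of 23, beside 25.2% of all promoters. Both were found in 2 of 9 and 5 of 23, beside 4.86% of all. A few of the windows with both are printed with the motifs in capitals, a motif on the other strand reading CAGGTG or GGGAAA, to show how the spacing varied.
Cela1, chr15:100688002-100688041, minus strand: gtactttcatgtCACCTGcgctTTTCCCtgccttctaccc
Prss1, chr6:41458812-41458851, plus strand: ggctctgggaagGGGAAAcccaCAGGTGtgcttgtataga
Cel, chr2:28563451-28563501, minus strand: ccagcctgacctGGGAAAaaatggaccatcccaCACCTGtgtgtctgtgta
Prss2, chr6:41521595-41521683, plus strand: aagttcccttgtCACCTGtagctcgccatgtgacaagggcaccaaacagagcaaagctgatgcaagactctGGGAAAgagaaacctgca
The first bases of the motifs were 10 apart in Cela1 and Prss1, 21 in Cel and 59 in Prss2, and in the windows not printed 31 in Cela3a, 134 in Cela2a and 168 in Amy2b. Several of the most abundant genes lacked the pair, since Ctrb1 and Reg1 had a TC-box alone and Rnase1, Sycn and Pnlip had neither motif in the window. Of the genes outside the rule, Cela1 stood at 47731 CPM, Cel at 15915 and Prss1 at 94.2. A match of letters is a description and shows no binding.

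Receptors and release machinery were detected unevenly. Of 20 genes of secretagogue signalling and exocytosis, 18 were scored. Cckar, Rab3d, Tmed6 and Tmed11 were called higher (beside 1.56% of all genes). Of the 7 that could have been called lower, Vamp2 alone was (beside 26.6%). Rab3d, a small GTPase of zymogen granules, stood at 73.6 CPM (50 UMIs) against 16.7. The cargo receptors Tmed6 and Tmed11 stood at 550 against 2.03 and at 109 against 0.176. The muscarinic receptor gene Chrm3 gave 1 UMI and Chrm1 and the secretin receptor gene Sctr gave 0, which at this depth allows up to 3 UMIs each in the 161 barcodes. Vamp8, a granule fusion protein, stood at 165 against 123.

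The ER folding genes did not rise as a group over the other barcodes of this gut, where plasma cells are common. Of 44 such genes, 4 were called higher (beside 1.56% of all genes). Of the 43 that could have been called lower 2 were (beside 26.6%). The median log2 ratio was -0.34 beside -0.85 over all measurable genes. The list thus stood under the other barcodes at its median, but above the run of genes. Pdia2, the protein disulphide isomerase of the pancreas, stood at 796 CPM (730 to 866) against 0.818, with 0.113 in mouse 2. Fkbp11 stood at 524 against 94.8, P4hb at 506 against 106 and the oxidase Ero1lb at 200 against 33.7. The chaperones Hsp90b1 and Pdia4 were called lower, at 358 against 1738 and at 64.7 against 315. With the other secretory products also left out of the totals neither was called, with log2 ratios of -1.40 each, and with the rule genes kept in the totals 1 ER gene was called higher and 12 lower.

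Set beside single cell types, the same 44 genes changed their place. Against the enterocyte-type barcodes 17 were called higher and 0 lower with a median log2 ratio of 1.35, where the call rates over all genes were 2.68% higher and 49.7% lower and the median was -1.23. Against the 2426 plasma-cell-type barcodes, in which immunoglobulin made up 20% or more of UMIs, 3 were called higher and 3 lower with a median of -0.57. There the call rates over all genes were 2.68% higher and 12.4% lower and the median was -0.21. Hspa5 (BiP), the main ER chaperone, stood at 517 CPM in the 161 barcodes, at 1083 in plasma-cell-type and at 68.2 in enterocyte-type barcodes. Against all other barcodes its log2 ratio was -0.80, and 0.08 with the other secretory products left out of the totals. Against the 2863 lymphocyte-type barcodes, which hold Ptprc with CD3 or T cell receptor UMIs and little immunoglobulin, 6 were called higher and 0 lower with a median of 0.47, beside call rates of 1.67% and 57.4% and a median of -1.59 over all genes.

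Some genes of amino acid and one-carbon metabolism stood far above the other barcodes, at low to moderate levels. Methionine is turned into S-adenosylmethionine, which donates methyl groups, and the resulting S-adenosylhomocysteine is cleared by AHCY. Of 30 genes on this list 28 were scored, and 12 of them were called higher (beside 1.56% of all genes). Of the 10 that could have been called lower 0 were (beside 26.6%). The whole list summed to 1708 CPM against 538. With the rule genes kept in the totals 7 of its genes were called higher and 2 lower. With the enzyme genes left out, the median log2 ratio was 0.01 beside -0.85, over the 16 genes with enough UMIs in both groups together. Steep genes with few UMIs in all, such as Mat1a, did not enter this median.

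The steep ones sat around methyl group use and creatine synthesis. Gatm and Gamt, the first and second enzymes of creatine synthesis, stood at 416 CPM (369 to 468) against 12.1 and at 174 (144 to 208) against 2.10. Gnmt, a glycine methyltransferase that uses S-adenosylmethionine, stood at 109 (85.5 to 137) against 0.340. Mat1a, the methionine adenosyltransferase of liver and pancreas, gave 24 UMIs in the 161 barcodes and 0 in all others of both mice. With a floor of 3 counts in the other barcodes of mouse 1 the ratio was 936-fold, before counting error in the 24 UMIs. The widely used Mat2a and Mat2b stood at 36.8 against 44.0 and 44.1 against 56.2. Cbs, which starts transsulphuration, stood at 86.8 (66.1 to 112) against 0.327 and Cth, which ends it, at 17.7 against 4.30.

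Ahcy itself gave only 14 UMIs in the 161 barcodes. Its level was 20.6 CPM with an interval of 11.3 to 34.6, against 2.83 in the other barcodes of mouse 1, 5.36 in enterocyte-type barcodes and 2.62 in mouse 2. This 7.28-fold ratio was called, but not among barcodes with 50% or more enzyme UMIs (log2 ratio 2.51) and not among those without other-cell RNA (2.60), where too few UMIs were left. With the rule genes kept in the totals the log2 ratio was 1.75, under 4-fold. A copy of Ahcy, Gm4737, may take some of its reads. The related Ahcyl1 and Ahcyl2 stood at 27.96 against 43.0 and 16.2 against 38.9.

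Some genes of amino acid supply were also called higher. Others on the list, among them Psph, Shmt1, Shmt2, Slc3a2, Slc7a5 and Glul, were not. Asns, the asparagine synthetase, stood at 150 CPM against 22.8 and the serine synthesis gene Psat1 at 27.96 against 5.95, whereas Phgdh, at 193 against 55.5, fell short of the 4-fold call. The glutamine transporter gene Slc38a5 stood at 80.9 (61.0 to 105) against 0.101, with 0 UMIs in mouse 2. Slc7a8 stood at 30.9 against 2.65 and the folate enzyme Aldh1l1 at 16.2 against 2.93, with a higher level, 41.4, in enterocyte-type barcodes. With members limited to those without other-cell RNA, 6 of the 12 were still called.

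**Figure D4:**
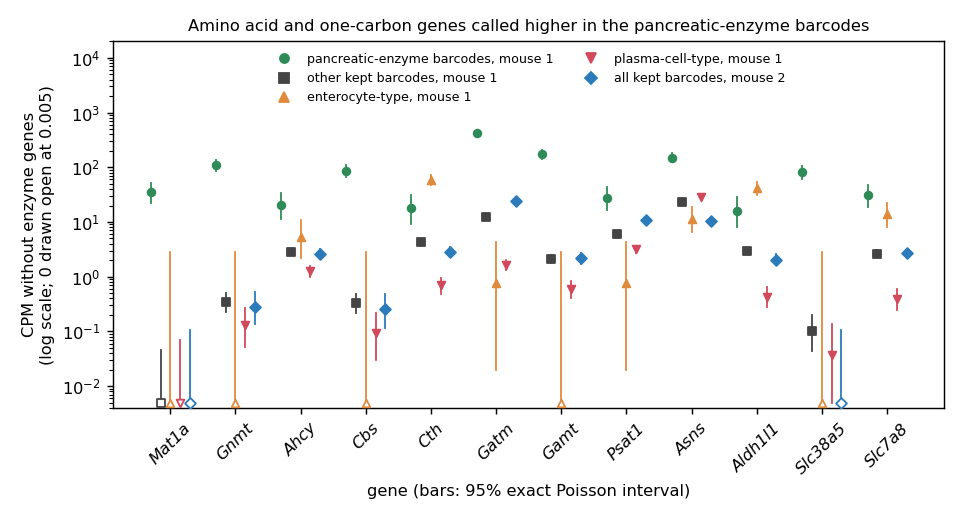
Level (vertical axis, CPM without the enzyme genes, log scale) of the 12 amino acid and one-carbon genes called higher (horizontal axis) in the 161 barcodes, the other barcodes of mouse 1, 2 cell classes of mouse 1 and all barcodes of mouse 2, with bars for 95% exact Poisson intervals and open symbols for 0 UMIs. Cth and Aldh1l1 are higher in the enterocyte-type barcodes, at 59.0 and 41.4, and Mat1a has no UMI outside the 161.

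Genes known from inflamed or stressed pancreas were divided. Of 19 such genes in the files 18 were scored, with 6 called higher (beside 1.56% of all genes). Of the 9 that could have been called lower 4 were (beside 26.6%). The median log2 ratio was -0.55 beside -0.85 over all measurable genes. Reg3b stood at 21393 CPM, Reg3a at 3594 and Reg3g at 1800, against 145, 4.01 and 55.5 in the other barcodes. Reg3b and Reg3g are also gut antimicrobial lectins, and the enterocyte-type barcodes held 1959 and 741 CPM of them. Clusterin (Clu), a secreted chaperone, stood at 790 against 2.15, Muc1 at 119 against 0.654 and the keratin Krt18 at 218 against 31.3, while its partner Krt8 stood at 153 against 130, a log2 ratio of 0.24 that was -0.87 with the rule genes kept in the totals. Krt19, Cxcl2, Cd44 and Vim were called lower, and Lcn2, Il33, Tff1 and Spp1 gave 0 UMIs. Nupr1, a stress-induced nuclear protein named here after its values were seen, stood at 2718 CPM against 9.79, and the metallothionein Mt1 at 2116 against 195.

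Immediate early genes, which often rise during dissociation, were low. Of 17 dissociation and stress genes, 0 were called higher (beside 1.56% of all genes). Of the 14 that could have been called lower 8 were (beside 26.6%), among them Fos at 150 against 954 and Jun at 63.3 against 417. The median log2 ratio was -2.03 beside -0.85 over all genes. Fos and Jun stood at 116 and 36.8 CPM in enterocyte-type barcodes, so their levels in the 161 were low beside plasma-cell-type barcodes (1208 and 479) and not beside enterocyte-type ones. With the secretory products left out of the totals 1 of the 17 was called lower.

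Markers of islet cells were nearly absent, and those of duct cells were divided. Of 10 islet genes, 9 had no UMI in the 161 barcodes and Sst had 1, and among the insulin, glucagon, pancreatic polypeptide and amylin genes not a single UMI was counted. Of 10 duct genes, Cftr, Spp1 and Slc4a4 had none and Krt7 had 1 UMI. Tff2 and Muc1, on the duct list as well, were called higher (beside 1.56% of all genes). Of the 3 that could have been called lower, Krt19 (10 UMIs) and Car2 (14 UMIs) were (beside 26.6%). The summed level of the duct list was 8912 CPM against 1162 in the other barcodes, of which Tff2 gave 8738 and 929. The 12 stromal and endothelial genes gave 3 UMIs together, all of Pecam1.

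The WNT target genes gave 35 UMIs in all, and the epithelial genes had a summed level near that of the other barcodes. Of 12 scored WNT target genes 0 were called higher, beside 1.56% of all genes. The 3 that could have been called lower, Ccnd1, Tcf7 and Cd44, were, beside 26.6% of all genes. Axin2, Lgr5 and the other crypt genes held 66 UMIs in all with Mki67, Top2a and Pcna. Of these 10 genes 0 were called, and only 3 could have been called lower. Apc itself gave 5 UMIs. The 10 epithelial genes summed to 534 CPM against 615 in the other barcodes, 115 in plasma-cell-type and 6638 in enterocyte-type barcodes. Krt18 was called higher than in the other barcodes (beside 1.56% of all genes). Of the 7 that could have been called lower Krt20 and Vil1 were, a share near the 26.6% of all genes. Against plasma-cell-type barcodes 4 of the 10 were called higher, beside 2.68% of all genes. Epcam stood at 75.05 CPM against 204 in the other barcodes and 1771 in enterocyte-type barcodes, and Vil1, the gene whose promoter drives the Cre, gave 5 UMIs (7.36 CPM, 2.39 to 17.2) against 666 in enterocyte-type barcodes.

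RNA of gut cells was present in the 161 barcodes, and its share moved with depth. Immunoglobulin genes gave from 0.944% to 56.9% of the non-enzyme UMIs with a median of 5.62%, and every barcode held UMIs of Igkc and Igha. The median was 16.0% in the shallowest depth group and 1.79% in the deepest. By enzyme share it was 34.6% in the 20 barcodes at 20% to 40%, 6.88% in the 113 at 40% to 60% and 2.89% in the 28 at 60% to 80%. Igkc stood 2.38 times as high as Igha in the 161 barcodes, 2.61 times in the other barcodes of mouse 1 and 2.24 times in mouse 2.

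Away from this trend stood 3 deep barcodes, picked out after their values were seen. They held 45744, 21610 and 45800 UMIs with immunoglobulin shares of 39.6%, 56.9% and 52.7% and enzyme shares of 33.0%, 28.2% and 31.7%. Together they gave 66.1% of all immunoglobulin UMIs of the group. In the other direction, 109 of the 161 held no UMI of 8 lymphocyte genes, 75 had under 5% immunoglobulin and 42 met both limits, with a median of 9768.5 UMIs. These 42 are called the barcodes without other-cell RNA here, although each still held immunoglobulin UMIs. In them the trypsinogens took 36.4% of enzyme UMIs, 26 of 29 secretory genes were called higher, and 4 ER genes were called higher and 2 lower, as in all 161.

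**Figure D5:**
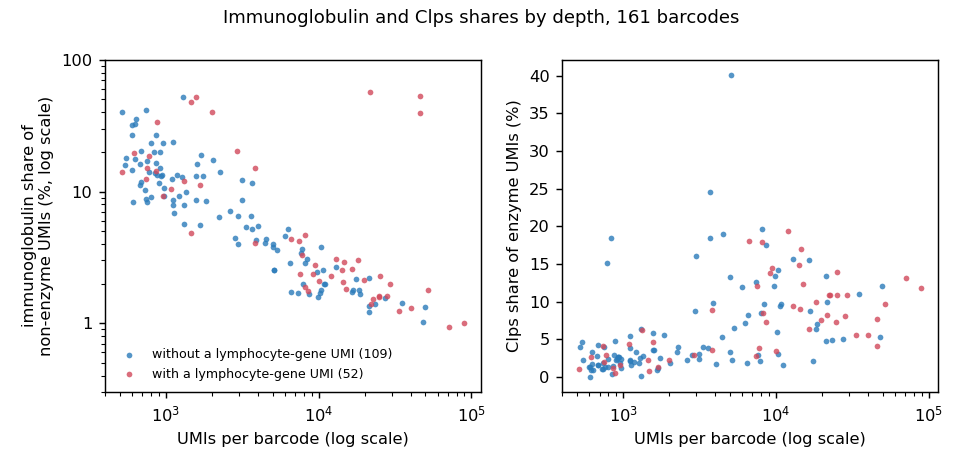
Immunoglobulin share of non-enzyme UMIs (left, percent, log scale) and Clps share of enzyme UMIs (right, percent) against UMIs per barcode (log scale), 1 point per barcode, coloured by whether a lymphocyte-gene UMI was present. The immunoglobulin median falls from 16.0% in the shallowest depth group to 1.79% in the deepest, with 3 deep barcodes at 39.6% to 56.9%, and Clps is mostly under 5% in the shallow barcodes.

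Most markers of other cells were low beside the other barcodes of mouse 1. Of 8 enterocyte markers that could be called lower all 8 were (beside 26.6% of all genes). Fabp1 stood at 116 CPM against 17638 in enterocyte-type barcodes, which were chosen by 12 enterocyte markers that include it. Anpep, a brush border peptidase on that list, was called higher at 29.4 against 7.02. Of the lymphocyte, plasma cell and myeloid markers 0 were called higher. Of the 14, 12 and 11 that could have been called lower 9, 9 and 11 were, beside 26.6% of all genes. Against enterocyte-type barcodes 7 of 16 lymphocyte, 4 of 15 plasma cell and 0 of 12 myeloid markers were called higher, beside 2.68% of all genes. Of the 4, 8 and 3 that could have been called lower there 0, 0 and 3 were, beside 49.7%. The summed level was 1756 CPM for the lymphocyte list (7830 in the other barcodes), 83543 for the plasma cell list (446117) and 337 for the myeloid list (4550), and Ms4a1, Csf1r and S100a9 were at 0. Among the Paneth and goblet markers 5 of the 9 that could be called lower were, beside 26.6% of all genes. The 5 genes called lower with the smallest ratios were Gkn3, Igkv12-44, Igkv1-117, S100a6 and Il1b, with log2 ratios from -5.43 to -4.73. Whether immunoglobulin and lymphocyte UMIs in the 161 barcodes came from free RNA or from a second cell in the droplet was not tested.

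Median shares of mitochondrial and nuclear RNA were lower than in the pooled other barcodes of mouse 1 and higher than in its enterocyte-type barcodes. Mitochondrial transcripts made up a median of 0.0518% of all UMIs in the 161 barcodes and 1.68% in the others, and 0.112% against 1.68% once the enzyme genes were left out. In enterocyte-type barcodes the median over all UMIs was 0.0290%. As a share of the summed non-enzyme UMIs the values lay closer, at 0.383% in the 161 and 1.32% in the others. The nuclear RNA Malat1 made up a median of 0.187% of non-enzyme UMIs against 2.73% in the others and 0.0435% in enterocyte-type barcodes, and Neat1 stood at 32.4 CPM against 148. Ribosomal protein genes gave 15.5% of the summed non-enzyme UMIs against 12.1%, but the medians over barcodes ran the other way, at 10.5% against 15.5%. Gm42418, which overlaps ribosomal RNA repeats, stood at 35766 CPM against 16102. Whether fragments of cells or free RNA form part of the group was not tested.

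Levels also moved with depth. Reg1 stood at 34129 CPM in the shallowest depth group and at 78267 in the deepest, Sycn at 27094 and 45396, and Tff2 at 2654 and 9204. Reg2 stood at 48016 and 43220 and Cela1 at 44313 and 46305, so not every secreted product moved. The creatine synthesis gene Gatm stood at 185 and 426 CPM and Hspa5 at 864 and 476. The shallowest group held only 16203 non-enzyme UMIs, so its Gatm and Hspa5 levels rest on few UMIs. Whether these genes moved with depth beyond counting error was not tested. Ribosomal protein genes took 9.10% and 16.6% of the non-enzyme UMIs, and the 29 other secretory products 34.3% and 45.6%. Igkc stood at 111769 and 56854 CPM over the same groups, and its part in these differences was not tested.

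Single barcodes varied around these sums. In the 81 barcodes at or above the median depth, Rnase1 ran from 10936 to 155607 CPM with a median of 55963, and Cela1 from 10477 to 118879 with a median of 51999. Cel ran from 1248 to 56094 with a median of 17056, and Pnliprp1 from 388 to 70935 with a median of 19872. None of these was at 0 in any of the 81. Clu was less even, at 0 in 15 of the 81 and at 4007 CPM in the highest. Try10 was at 0 in 8 and reached 7426. Among the enzymes of the rule, Prss2 and Ctrb1 were the steadiest, their upper quartiles being 1.22 and 1.23 times their lower ones, and Clps was the least steady at 2.36 times.

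Reg1 varied apart from Reg2 and the Reg3 genes over the deeper barcodes. All of Reg1, Reg2, Reg3a, Reg3b, Reg3d and Reg3g lie together on chromosome 6, between chr6:78370657-78373466 (Reg3b) and chr6:78466269-78468872 (Reg3g) in GRCm38. In the 81 deeper barcodes Reg1 ran from 14504 to 163912 CPM with a median of 84550, and Reg2 from 5366 to 141425 with a median of 40864. Reg3b ran from 780 to 74543 with a median of 18136. Reg3a ran from 0 to 17640, its upper quartile being 4.52 times its lower, and for Reg3g that ratio was 5.38. It was 2.89 for Reg2, 2.39 for Reg3b and 2.22 for Reg3d, and 1.52 and 1.47 for Zg16 and Sycn. Reg3a and Reg3g had far lower levels, with medians of 2558 and 1432 CPM, and Reg3g was at 0 in 9 of the 81. How much of their spread is counting error was not tested.

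Reg2 and Reg3b moved together over these 81 barcodes, with a Spearman correlation of 0.72, and the 10 pairs within Reg2, Reg3a, Reg3b, Reg3d and Reg3g lay between 0.32 and 0.72. Reg1, Zg16, Sycn and Tff2 formed another such set with 6 pairs between 0.50 and 0.71. Between the sets the 20 pairs lay between -0.39 and 0.12, and Reg1 against Reg2 stood at -0.13. Clps, as a share of enzyme UMIs, stood at -0.64 against Reg2. Reg2 did not move with its set alone. It stood at 0.64 with Pnliprp1 and at 0.54 with Prss2 as a share of enzyme UMIs. Pnliprp1 with Dmbt1 (0.80) and Cel with Gp2 (0.74) were pairs of high correlation among the secreted proteins. In the 40 deeper barcodes without other-cell RNA the values were 0.72 for Reg2 with Reg3b, -0.40 for Reg1 with Reg2 and a median of -0.31 between the sets. Pairs within the Reg2 and Reg3 set then lay between 0.33 and 0.72, while Reg2 with Prss2 stood at 0.74. Pairs within Reg1, Zg16, Sycn and Tff2 were weaker than in the 81, between 0.31 and 0.60. The sets were put together after their correlations were seen, and the barcodes share 1 library and a common total, so these values are descriptions across barcodes.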

How the data were processed

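The authors aligned 10x 3′ v3 reads to mm10 with Cell Ranger 6.1.2 and deposited, for each of 2 mice, a matrix of raw UMI counts per gene and barcode. The annotation release was not given in the sources used here. Barcodes were kept as in the study's methods, with over 100 genes, over 400 UMIs, under 5% mitochondrial and under 10% haemoglobin UMIs. Counts were summed over barcodes in Python 3.11.15 (numpy 2.4.6, scipy 1.17.1, pandas 2.3.3, matplotlib 3.10.9) and divided by totals without the 11 enzyme genes, and exact Poisson and binomial intervals were taken at 95%. Genes with 10 or more UMIs over the kept barcodes of mouse 1 were scored, and counts under 3 were set to 3 in ratios. Medians used genes with at least 3 UMIs expected in the 161 barcodes had these and the compared barcodes shared 1 level, a limit set after seeing the data. Calls used mouse 1 alone, since mouse 2 held no member. No columns were left unused (0). Gene coordinates came from GENCODE M21 (30934 of 31053 features matched) and promoters from RefSeq. The members, the 22 gene lists and the comparisons were chosen with earlier results of these data known. Named were the rule genes, the listed genes, the 15 genes with the largest ratio and the 5 with the smallest, of which 1 is not reported here. Genes outside these, Nupr1, Mt1, Malat1, Neat1, Gm42418 and Apc, were chosen after their values were seen or as quality measures. Scripts were tested on simulated data.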

Additional observations from a re-analysis of the deposited data

Results flagged for a closer look

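Among the 1704 barcodes of mouse 1 that the quality limits removed, 10 also had 20% or more of their UMIs from the 11 enzyme genes. They were flagged because they lie outside the barcodes compared above, while 0 of the 1843 removed barcodes of mouse 2 reached that share. They held from 507 to 1619 UMIs, and 6 of the 10 were removed for 5% or more mitochondrial UMIs.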

How the results depend on the processing

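Members were found in 1 library only, so leaving out mouse 1 gave 0 barcodes and no other value, and leaving out mouse 2 gave 161 again and moved nothing. No paired analysis was possible because the series has 1 group, no test was run and mouse 2 held no member. The choice of totals moved the counts of calls. With the rule genes kept in them the median log2 ratio was -1.74, 4335 genes were called lower, and the lists had 2 transcription factor, 5 secretagogue, 12 ER, 2 amino acid and 13 dissociation genes lower and 1 ER and 7 amino acid genes higher. Fkbp11, P4hb, Ero1lb, Ahcy, Asns and Krt18 then fell short of the call, and Xbp1 was called lower. With the other secretory products left out as well it was -0.23, with 365 genes higher, 238 lower, 5 transcription factors higher, 0 secretagogue and 0 ER genes lower and 1 dissociation gene lower. Bhlha15 and Phgdh were then called higher, and Fos, Jun, Malat1 and Igkc were no longer called. In the 42 barcodes without other-cell RNA, 135 genes were higher and 616 lower, 1 transcription factor and 6 amino acid genes were higher and 0 secretagogue genes lower, and Ctrb1 took 26.55%. As a mean over barcodes, 2134 genes were lower, with 4 secretagogue, 1 ER, 1 amino acid, 1 pancreatitis and 5 dissociation genes lower, Ctrb1 at 26.2% and the trypsinogens at 36.1%. At 50% enzyme UMIs 107 barcodes were left, with Ctrb1 at 26.6%, the trypsinogens at 36.7% and 1 transcription factor lower. A 2-fold call gave 386 genes higher and 2543 lower, 5 transcription factors higher and 1 lower, and 4 secretagogue, 10 ER and 1 amino acid genes lower. A minimum of 50 UMIs left 0 transcription factors higher. No call turned from higher to lower or back, but uncalled log2 ratios changed sign. Hspa5 went from -0.80 to 0.08 with the secretory products left out of the totals and to 0.10 as a mean over barcodes, and Krt8 from 0.24 to -0.87 with the rule genes kept in them and to -0.49 as a mean over barcodes. Under the 12 settings in which the lists were counted, the secretory list had 26 or 27 of its 29 genes called higher. The other 5 settings gave the number of barcodes alone. Settings that limited members to the deeper 81 barcodes or to those with 10 or more UMIs of 5 other acinar products were added after seeing the data. Depth limits the rare genes, since 1 UMI in the 161 barcodes is 1.47 CPM.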
